A study of Mus musculus with 6 samples.

Results

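The mouse array carried probes for stretches of the genome between known genes that the file's own annotation calls lincRNA, long intergenic non-coding RNA. They were taken as the probes, other than controls, that are named by a chromosome interval followed by F for the forward or R for the reverse strand, and that the scanner software marked as well above background on each of the 3 WT arrays or each of the 3 KO arrays. Of 16181 such interval probes on the array, 34 lay in a window of chromosome 2 just distal to Spred1 and were left out. Of the remaining 16147, 5314 were kept (32.9%), among 27809 kept probes of the whole array. They represent 2529 of 4599 combinations of interval and strand (55%) and 2092 of 3534 intervals. All positions are on mouse genome build mm9, as the scanner files give them.

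Long intergenic non-coding RNAs are transcripts that code for no protein and lie outside known genes. Many were mapped as intervals that carry the chromatin marks of active transcription without a known gene inside, before the exact transcript was known, so an interval can hold transcripts of either strand, several short transcripts or the unannotated end of a neighbouring gene. They are on average less abundant and more restricted to single cell types than messenger RNAs. A few, such as Malat1, Neat1 and H19, are known in blood stem cells or in the nucleus of most cells.

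The samples were C57BL/6 mouse bone marrow cells sorted as CD48-, lineage marker-, c-Kit+ and Sca-1+, in which haematopoietic stem cells and early progenitors are enriched. There were 3 wild-type samples (WT) and 3 Spred1 knockout samples (KO), each on its own 1-colour array. Spred1 is an inhibitor of the Ras to ERK kinase pathway. The labels give neither age nor sex nor the deleted part of Spred1, and do not say whether the samples came from separate animals, so each p-value reflects only how far these samples scatter, and some of that scatter may be technical.

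The sequences below are the 60-base probes on which the results turn, with the mm9 position of each probe, printed in the orientation given in the scanner files. Capitals mark AATAAA, the letters of the common polyadenylation signal. The first 3 are the interval probes of smallest p that were higher in KO.

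A_30_P01028015, chr13:99466535-99466594, reverse strand: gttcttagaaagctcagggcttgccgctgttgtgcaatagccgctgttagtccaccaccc
A_30_P01029773, chr3:108771100-108771159, reverse strand: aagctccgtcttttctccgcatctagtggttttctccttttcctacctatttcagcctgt
A_30_P01024912, chr6:90436397-90436456, forward strand: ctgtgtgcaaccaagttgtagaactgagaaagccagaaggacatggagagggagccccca

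The next 3 were lower in KO, by the same ranking or beside a gene that was lower too.

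A_30_P01023847, chr1:137503113-137503172, reverse strand: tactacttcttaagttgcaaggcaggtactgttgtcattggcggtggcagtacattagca
A_30_P01022937, chr5:77204105-77204164, forward strand: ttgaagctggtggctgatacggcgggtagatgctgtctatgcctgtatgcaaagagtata
A_30_P01027314, chr10:94871047-94871106, reverse strand: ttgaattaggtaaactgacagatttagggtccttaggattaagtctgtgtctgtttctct

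The next 4 are among the 10 brightest, and show a nuclear RNA locus, a ribosomal RNA locus and a pair of probes from different chromosomes that both share a run of bases with a probe of a ribosomal protein gene.

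A_30_P01031754, chr19:5802130-5802189, reverse strand: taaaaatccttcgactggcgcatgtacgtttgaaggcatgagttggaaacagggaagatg
A_30_P01020015, chr17:39983218-39983277, forward strand: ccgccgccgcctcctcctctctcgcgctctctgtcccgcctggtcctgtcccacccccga
A_30_P01026458, chr11:22686751-22686810, reverse strand: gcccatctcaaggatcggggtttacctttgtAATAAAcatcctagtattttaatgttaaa
A_30_P01020937, chr2:167106861-167106920, reverse strand: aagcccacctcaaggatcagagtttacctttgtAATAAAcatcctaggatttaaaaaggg

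The last pair covers 56 of the same bases on opposite strands of 1 interval. That interval holds the array's probe for Dancr, a non-coding RNA that hosts a small nucleolar RNA.

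A_30_P01026069, chr5:74489543-74489602, forward strand: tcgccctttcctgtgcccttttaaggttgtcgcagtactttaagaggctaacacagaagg
A_30_P01025874, chr5:74489547-74489606, reverse strand: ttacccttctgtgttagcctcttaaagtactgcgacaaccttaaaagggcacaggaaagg

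Each array had 62976 spots, of which 92 to 155 were marked as outliers and left out, and none was saturated. Arrays WT1, WT2, KO1 and KO2 lay on 1 slide, and WT3 and KO3 on another that was scanned apart. All 7 gate genes, Kit and Ly6a (Sca-1) among them, were well above background, but so was Cd48, which the gate should lack, at log2 levels between -0.67 and 0.20. Among the B cell markers, Ms4a1, Ebf1 and Pax5 were not kept. All 10 neutrophil markers were kept, and their summed log2 level was 6.67 on WT1, between 8.94 and 9.04 on WT2 and WT3, and between 8.39 and 8.78 in KO. The summed level of the 4 kept erythroid markers of 6 was lowest on WT1 as well, at 3.58. It was 5.57 and 5.39 on WT2 and WT3, and 4.55 to 4.73 in KO. Of these 4, Hba-a1 and Hbb-b1 were lowest on WT1, and Epor and Gata1 were not. The monocyte and macrophage list had 9 entries, of which Adgre1 and Emr1 are names of 1 gene with the same probe. Its sum was 6.55 on WT1, 6.84 and 6.92 on WT2 and WT3, and 6.84 to 6.99 in KO. Their part in the results below was not tested, and the main results are given without WT1 as well. The 3 Spred1 probes went different ways (KO minus WT 2.44 ± 0.16, -0.14 ± 0.10 and -0.98 ± 0.09 SE, limma adjusted p = 0.0133, 0.590 and 0.0543), and as the sources used here do not give the deleted part, they check nothing.

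Interval RNAs were detected less often than other transcripts and were dimmer. On single arrays, 34.7% to 36.7% of interval probes were well above background, against 58.3% to 59.1% of all other probes. The kept share was 32.9% for interval probes and 56.9% for the other probes. Of the 5314 kept probes, 4721 were well above background on all 6 arrays, 285 on all 3 WT arrays and fewer KO arrays, and 308 on all 3 KO arrays and fewer WT arrays. The 593 of the last 2 kinds had a median level of -3.72, and the 620 probes just outside the rule, well above background on 2 arrays of their better genotype, had one of -4.09. Among the 22487 other kept probes, 427 were well above background on all 3 WT arrays and fewer KO arrays. Another 467 were so on all 3 KO arrays and fewer WT arrays. Both kinds were a smaller share of the other kept probes than of the kept interval probes.

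Levels are given as log2 of the signal minus log2 of the array's 75th percentile, so that 0 is the level of that percentile. The median interval probe stood at -2.05, with 5% below -3.79 and 5% above 2.35, and the brightest reached 8.69. The other kept probes had a median of 0.40. Above 0 were 1019 interval probes (19.2%), against 55.1% of the other probes. The brightness of different probes depends on their sequence as well as on the RNA, so these distributions describe the probes. The spread within genotypes was also wider, with a median SD of 0.189 for interval probes and 0.132 for other probes.

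**Figure D1:**
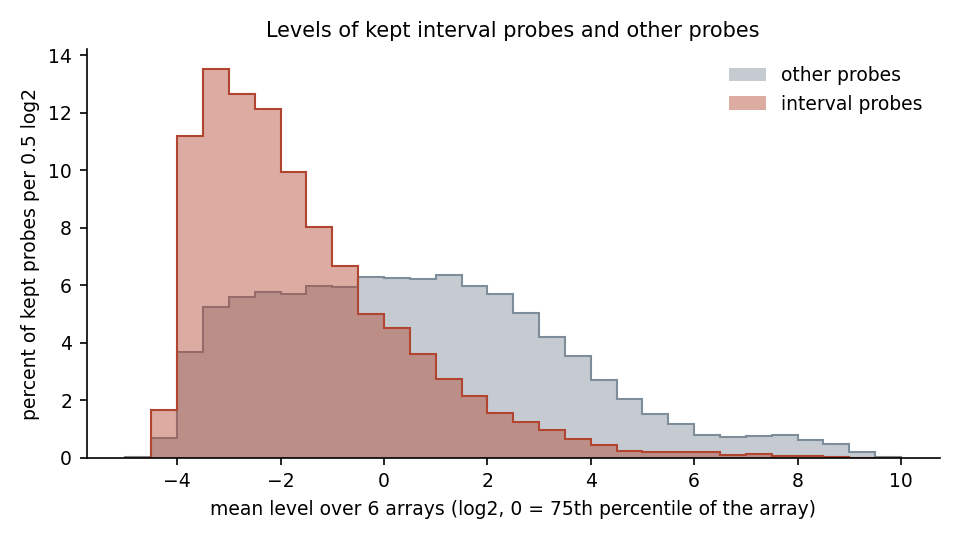
Share of kept probes (vertical axis, percent per 0.5 log2 units) at each mean level over 6 arrays (horizontal axis, log2, with 0 at the 75th percentile of the array), for interval probes (red) and all other probes (grey). The interval probes pile up at the dim end with a median of -2.05, and the other probes centre on 0.40.

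Intervals were 62 to 7128487 bases long, with a median of 7300.5, and had 1 to 10 probes per strand on the array, with a median of 3. A single kept probe stood for 1191 of the 2529 combinations of interval and strand, 1338 had more, and 10 had all 10 probes kept. Probes of 1 interval share a locus and are not replicates of each other. Over the 84 pairs of kept probes of the same interval and strand that lay less than 60 bases apart, KO minus WT correlated with r = 0.233. Over the 4061 pairs that lay 60 bases to 1 kb apart r was 0.477, and over the 1385 pairs farther apart it was 0.170, so it did not fall steadily with distance. These correlations are across probes on the same 6 arrays and describe them only.

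The base composition of a probe went with its detection. Of interval probes with at most 35% G and C, 28.7% were kept, and of the 338 with more than 60%, 72.8%. Other probes went from 56.2% to 71.9% over the same range. AATAAA, searched on the probe strand, stood in 632 interval probes (3.91%) and in 12.6% of other probes, and its reverse complement TTTATT in 3.03% and 4.03%. Interval probes with AATAAA were kept in 34.0% of cases and those without in 32.9%. Among other probes these shares were 64.2% and 55.9%.

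A match of all 60 bases to a RefSeq promoter window of build GRCm38.p6 (300 bases around a gene's start, either strand) was found for 170 interval probes (1.05%), against 0.613% of other probes. Of the 90 that matched the strand opposite to the gene, 47.8% were kept, with a median difference between genotypes of 0.12, and of the 84 on the gene's own strand 38.1%, with a median difference of 0.11. Outside these windows 32.8% were kept. The probes in the windows had a median of 55% G and C, and those outside 45%.

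Interval probes were detected more often near a non-interval probe of the same strand, over the 16029 with a position of their own (118 have none). The neighbour is the nearest probe that is not an interval probe, and it can belong to the same transcript. In all, 76 interval probes had the same sequence as such a probe, and these were not left out of the shares kept. Where the nearest such neighbour on the same strand lay within 1 kb, 46.1% of interval probes were kept. This share was 45.2% at 1 to 3 kb, 41.5% at 3 to 10 kb, 33.1% at 10 to 30 kb, 28.6% at 30 to 100 kb and 24.7% beyond. By distance to the nearest probe on the opposite strand it showed no such fall, lying between 29.1% within 1 kb and 34.5% at 10 to 30 kb.

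Detection of interval probes went with that of their neighbours on the same strand. Within 10 kb of a kept probe on the same strand, 56.5% of 2762 interval probes were kept, and within 10 kb of one that was not kept, 21.3% of 1599. Neighbours of identical or overlapping sequence were counted in these shares, and 34 kept interval probes were identical to a kept neighbour. With the neighbour on the opposite strand, the share was 30.6% of 2681 beside a kept probe and 30.6% of 1278 beside one not kept. For the genotype difference, over 375 pairs within 1 kb on the same strand that shared no bases, KO minus WT of the interval probe and its neighbour correlated with r = 0.463, against r = 0.231 over 190 such pairs on opposite strands. At 10 to 100 kb, r was 0.134 on the same and 0.00204 on the opposite strand. No p is given, since neighbouring probes on the same arrays are not independent.

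The strands of an interval were often both detected, with little relation between their genotype differences. The array probed 1065 intervals on both strands. Both were kept for 437 (41.0%), the forward strand alone for 211, the reverse strand alone for 235, and neither for 182. Over the 437 intervals with both strands kept, taking the mean of the kept probes of each strand, KO minus WT of the strands correlated with r = 0.0215. Both strands had values higher in KO in 251, both lower in 37, and opposite signs in 149. Of all kept interval probes, 68.4% had a value higher in KO.

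The interval chr5:74487385-74497428, which holds the Dancr probe at the position of its own forward probe A_30_P01020357, showed the strands most closely. Its forward probe A_30_P01026069 read 4.63, 5.17 and 5.37 in WT and 5.48, 5.13 and 5.38 in KO. The reverse probe A_30_P01025874, over 56 of the same bases, read 3.37, 3.81 and 4.08 in WT and 4.11, 3.89 and 4.11 in KO. WT1 was the lowest array on both of these probes and the genotypes overlapped on both. The other forward probes differed in this. WT1 was the lowest array also on A_30_P01031385. It was the highest on A_30_P01019250, A_30_P01027365, A_30_P01032580, A_30_P01031327, A_30_P01032180 and A_30_P01020357. The 10 forward probes of this interval had mean levels from -2.10 to 5.34 within a single kilobase, and the differences ran from -0.14 to 0.29, none past the threshold.

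Of the 10 intervals with all 10 probes kept, 3 are described, those with the brightest single probe. The first is the Dancr interval. In the next, 10 forward probes lay 3.7 to 4.3 kb past the probe of Crebrf, the gene of a regulator of the transcription factor CREB3 (chr17:26911397-26917047). Their mean levels ran from 0.79 to 2.98, and all 10 differences were above 0, from 0.09 to 0.24. The brightest, A_30_P01022537, read 2.77, 2.97 and 2.83 in WT and 3.06, 3.08 and 3.15 in KO. Its genotypes did not overlap, and the difference of 0.24 ± 0.09 SE had a limma adjusted p of 0.424. Crebrf itself differed by 0.40 (adjusted p = 0.404). The 10 forward probes of chr16:43623581-43642715 ran from -2.79 to 3.53, with 9 of 10 differences above 0. Their nearest gene probe is that of Tigit, an inhibitory receptor of T cells, on the other strand. Over all kept interval probes 68.4% of differences were above 0, and the 10 probes of each interval share 1 locus.

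The brightest interval probe was A_30_P01031754, on the reverse strand of chr19:5801802-5802597, 6.3 kb before the probe of Malat1, the RNA of nuclear speckles, which the files also call NEAT2. It read 8.33, 8.67 and 8.74 in WT and 8.92, 8.56 and 8.93 in KO. KO1 and KO3 were above every WT array, KO2 was not, and the difference was 0.22 ± 0.16 SE (limma adjusted p = 0.585). A_30_P01020015 lay 0.203 kb past a probe of Rn45s, the precursor of ribosomal RNA. Its WT arrays read 8.21, 8.21 and 8.37 and its KO arrays 8.35, 8.22 and 8.44, with overlap.

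Some of the brightest interval probes share sequence with probes of other loci. A_30_P01026458, on the reverse strand of chr11:22681800-22707775, shares a run of 45 bases with the array's probe for Rps16, a protein of the small ribosomal subunit whose gene lies on chromosome 7. A_30_P01020937, from chromosome 2, shares 31 bases with the same Rps16 probe. Both hold AATAAA, as the sequences above show. Among all interval probes, 112 share a run of at least 30 bases with a probe of another locus, on another chromosome or more than 1 Mb away, and 65.2% of these were kept against 32.7% of the rest. Among kept probes there were 73, with a median level of -0.68 against -2.06 for the rest. Of the 10 brightest, 5 others hold more than 60% G and C. Among them are the forward and reverse probes of chr12:73838608-73862621, near 5033425G24Rik. The forward probe A_30_P01020570 read 7.26, 7.46 and 7.52 in WT and 7.81, 7.58 and 7.71 in KO. The reverse probe A_30_P01031264 read 7.49, 7.54 and 7.62 in WT and 7.75, 7.65 and 7.74 in KO. All KO arrays lay above all WT arrays on both strands, by 0.28 ± 0.11 and 0.16 ± 0.09 SE, but neither passed the threshold (limma adjusted p = 0.424 and 0.499).

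Loss of Spred1 went with slightly higher signal over the interval probes as a set, and with hardly any single probe that passed the test. At a limma p adjusted over all 27809 probes, with a threshold of 0.05, 1 interval probe was higher in KO and 0 were lower, where 0.0216% of all probes were higher and 0.0108% lower. At an unadjusted p under 0.05, 609 were higher (11.5%) and 112 lower (2.11%), where the background over all probes was 6.72% higher and 4.72% lower. The groups did not overlap for 782 higher and 162 lower interval probes (14.7% and 3.05%), where the background was 9.24% and 9.45%. A difference of 1.5-fold or more in either direction was reached by 275 (5.18%), where the background was 3.58%.

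The median KO minus WT over the interval probes was 0.10, a 1.07-fold difference, against -0.0015 over all probes and -0.022 over the other probes. Over the 4721 interval probes well above background on every array it was 0.099. A value higher in KO was found for 3634 (68.4%), against 45.3% of the other probes. It was above 0 on each of 20 chromosomes, from 0.068 on chromosome 16 to 0.15 on chromosome 3, and was 0.09 for forward and 0.11 for reverse probes. This count and median describe the set, and no test was made over its members. No value of RNA quality or RNA input was analysed here beside this shift.

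The shift was not even over the KO arrays. Relative to the mean of the 3 WT arrays, the median interval probe stood at -0.0026, 0.011 and -0.0038 on the WT arrays and at 0.16, 0.032 and 0.13 on the KO arrays. KO2 was close to the WT arrays, and by this measure all 3 KO arrays lay above all 3 WT arrays. By the plain median level they did not. KO2, at -2.051, lay below WT2 (-2.047) and above WT1 (-2.077) and WT3 (-2.086), while KO1 (-1.912) and KO3 (-1.961) lay above all WT arrays. The other probes stood between -0.029 and 0.024 on every array. Without KO2 the median difference was 0.14 with 879 probes higher and 173 lower at an unadjusted p under 0.05, without KO1 it was 0.077 with 409 and 134, without KO3 0.090 with 397 and 97, and without WT1 0.097 with 486 and 92. The other probes moved too: 7.51% were higher and 6.62% lower without KO2, 3.78% and 3.58% without KO1, 3.31% and 2.79% without KO3, and 3.95% and 2.76% without WT1, where interval probes had 16.5% and 3.26%, 7.70% and 2.52%, 7.47% and 1.83%, and 9.15% and 1.73%. Within slide 1, with 2 arrays per genotype, it was 0.086, and within slide 2, with 1 array per genotype and no test, 0.13. In these bulk samples, a change in the number of cells with a transcript and a change in its amount per cell cannot be told apart.

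**Figure D2:**
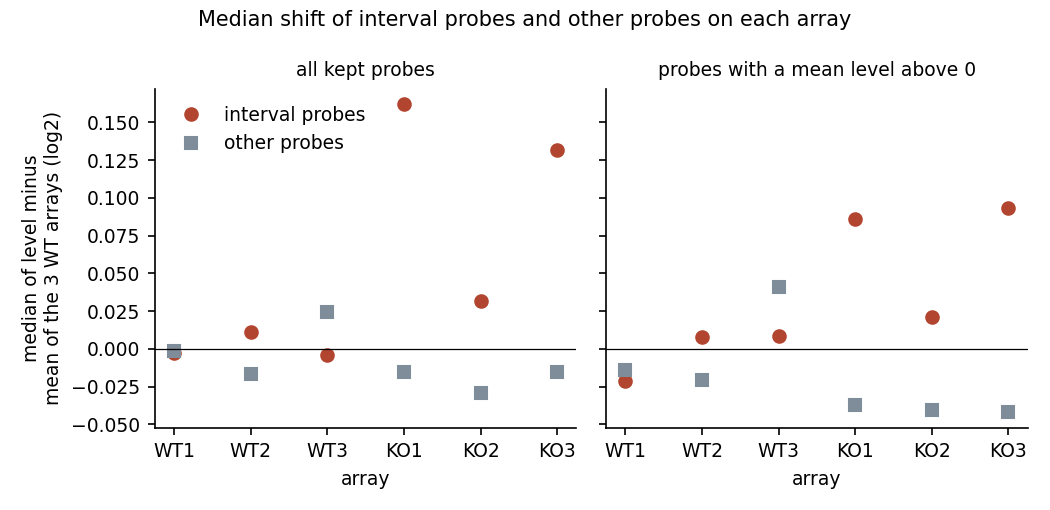
Median over probes of the level minus the mean of the 3 WT arrays (vertical axis, log2) on each array (horizontal axis), for interval probes (red circles) and other probes (grey squares), over all kept probes on the left and over those with a mean level above 0 on the right. On the left KO1 (0.16) and KO3 (0.13) stand above KO2 (0.032) and the WT arrays, and other probes stay between -0.029 and 0.024.

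The size of the shift depended on brightness and on the scaling. Interval probes with a level up to -3 had a median difference of 0.13, and other probes in the same band had 0.10. In the bands above -1 the medians of the interval probes stayed above 0 and those of the other probes did not: between 0 and 2 the medians were 0.080 and -0.049, and above 2 they were 0.054 and -0.037. Under normexp background correction with quantile normalization the order over the bands turned, to 0.011 up to -3, 0.099 between 0 and 2 and 0.087 above 2, where other probes had -0.0031, -0.017 and -0.013. Over all interval probes the median was 0.039 under that setting and 0.067 under quantile normalization of the processed signal. Higher probes made up 84.5% of those at an unadjusted p under 0.05, and 72.5% under quantile normalization, with 479 higher and 182 lower. Of the other probes 5.59% were higher and 5.34% lower at that p, and 4.85% and 5.70% under quantile normalization. Over the 1019 interval probes with a level above 0, KO1 and KO3 stood at 0.086 and 0.093 and KO2 at 0.021, against -0.021, 0.0080 and 0.0085 on the WT arrays.

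**Figure D3:**
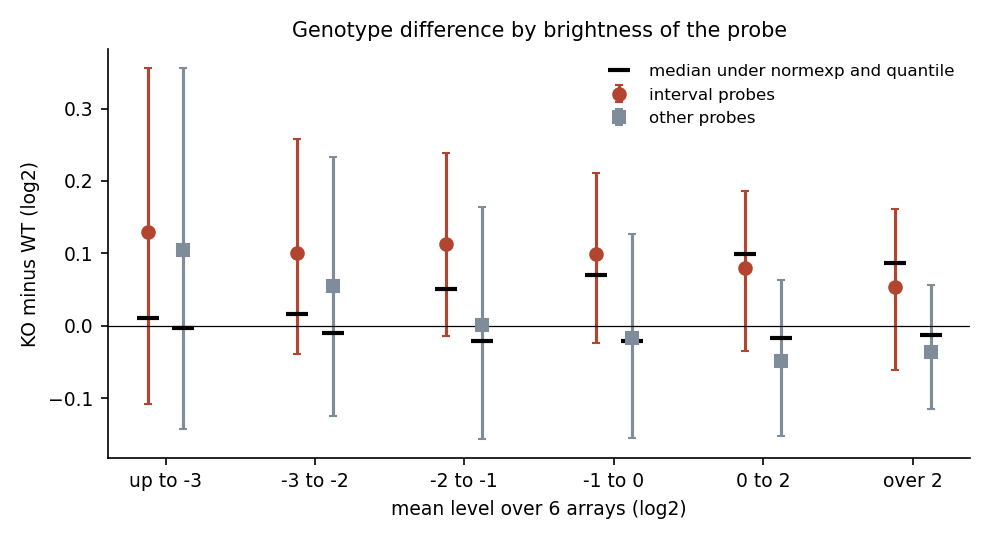
Median KO minus WT (vertical axis, log2) by mean level of the probe (horizontal axis, 6 bands) for interval probes (red circles) and other probes (grey squares), with bars from the first to the third quartile of probes. Black dashes mark the medians under normexp with quantile normalization, where the interval probes go from 0.011 in the dimmest band to 0.087 in the brightest.

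The genotype difference also varied with the distance to a neighbour. Interval probes within 1 kb of a same-strand probe that is not an interval probe had a median difference of 0.032, and those at 30 to 100 kb had 0.12. The 1329 probes in intervals that hold such a probe had a median of 0.082, and the other 3985 had 0.11. By base composition the median was 0.066 at up to 35% G and C and 0.13 above 60%. Other probes had -0.040 and 0.12 in the same classes, so the rise was not particular to interval probes.

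The probe that passed the threshold was A_30_P01028015, on the reverse strand of chr13:99465269-99472596. It read -5.07, -4.90 and -5.20 in WT and -3.32, -3.73 and -3.54 in KO. All 3 KO arrays were well above background and no WT array was, so the genotypes did not overlap. The KO mean of -3.53 ± 0.20 (SD, n = 3) against the WT mean of -5.06 ± 0.15 gave a difference of 1.53 ± 0.14 SE (limma adjusted p = 0.0404), and as a bound the signal was at least 1.88-fold higher in KO. For the bound, a WT array counted at its dimmest probe well above background, or at this probe's signal where that was higher. This bound and those given below hold for the scaled processed signal only. The probe was kept through its KO arrays alone, so the filter itself favoured a probe that is high there, and without the filter the adjusted p was 0.152. The exact permutation test of this probe alone, two-sided, gave p = 0.1, the smallest that 3 against 3 arrays allow. The nearest gene probe lies 10.2 kb away on the same strand and belongs to Tmem171, a transmembrane protein, with a difference of 1.07 ± 0.23 SE (adjusted p = 0.368). The probe is dim, and the call was kept under quantile normalization (0.0418) and with the authors' value table (0.0397), and was lost under the other 11 settings in which the probe was tested, with an adjusted p up to 0.764. The difference was 0.33 under normexp with quantile normalization and 1.42 to 1.63 under the other 10 that lost the call.

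The next interval probes higher in KO did not pass. A_30_P01029773, on the reverse strand of chr3:108763862-108772151 and 5.79 kb past the probe of Fam102b, read -4.05, -3.93 and -4.05 in WT and -3.17, -3.04 and -3.16 in KO. Every array was well above background, the genotypes did not overlap, and the difference was 0.89 ± 0.09 SE (limma adjusted p = 0.0598), while Fam102b differed by 0.15. A_30_P01024912, 11.3 kb past the probe of the Kruppel-like transcription factor gene Klf15, read -4.89, -4.86 and -4.55 in WT and -3.49, -3.26 and -3.64 in KO. No WT array was well above background, so that it too was kept through KO alone, and as a bound the KO signal was at least 1.97-fold higher (limma adjusted p = 0.0813, of a probe the filter picked where it is high). The Klf15 probe was not kept. Of the 10 probes named on this side 4 were kept through KO alone, and of the 10 named on the lower side 6 through WT alone, so their p-values carry the same limit. The other 7 on this side had differences from 0.60 to 1.43 and an adjusted p of 0.158. They include A_30_P01018274 past Nsfl1c, a cofactor of the p97 ATPase, at 0.70, and A_30_P01028098 past the phospholipase gene Pnpla8, with at least 2.16-fold higher signal in KO. The latter has no position of its own, so its distance of 5.28 kb was taken from the middle of its interval. The nearby genes Nsfl1c (-0.08) and Pnpla8 (0.07) had adjusted p of 0.717 and 0.823.

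On the lower side the smallest p belonged to A_30_P01023847, on the reverse strand of chr1:137503023-137625604. It read -1.78, -1.71 and -1.73 in WT and -2.47, -2.76 and -2.47 in KO. The genotypes did not overlap, and the difference was -0.83 ± 0.11 SE (limma adjusted p = 0.158). Its nearest gene probe, of the LIM protein Csrp1, lies 146 kb away on the other strand and differed by 0.09. The other 9 had differences between -0.66 and -1.53 and adjusted p between 0.252 and 0.376.

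Several of these lay on the strand of a gene that was lower as well, though none of those genes passed. A_30_P01027314, on the reverse strand of chr10:94870971-94871658, lies 4.02 kb past the probe of Socs2, an inhibitor of JAK-STAT signalling from cytokine receptors. It read -0.26, -0.81 and -0.38 in WT and -1.79, -1.10 and -1.45 in KO. Every KO array was below every WT array, by -0.96 ± 0.21 SE (limma adjusted p = 0.373), and Socs2 itself differed by -1.11 (adjusted p = 0.327). A pair of forward probes of chr5:77188300-77205150, 14.9 and 15.0 kb before the probe of C530008M17Rik, had differences of -0.82 and -0.67 beside -0.79 for that gene. The first of them, A_30_P01022937, read -1.92, -1.95 and -2.34 in WT and -2.93, -2.76 and -2.96 in KO, without overlap. Other neighbours had smaller differences: Wdr59, a subunit of the GATOR2 complex, at -0.17, Cdc42, a small GTPase that controls cell polarity, at -0.14, and Apod at -0.18.

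**Figure D4:**
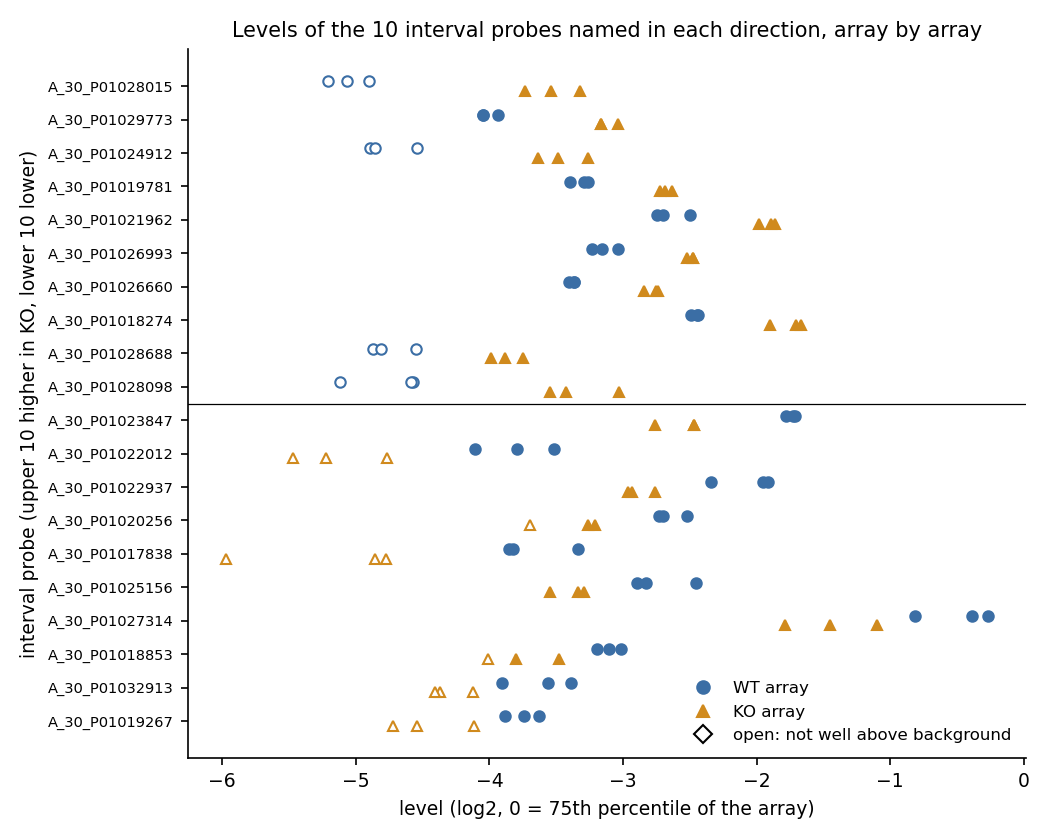
Level (horizontal axis, log2, 0 at the 75th percentile of the array) on each WT array (blue circles) and each KO array (orange triangles) of the 10 interval probes of smallest p in each direction with at least 1.5-fold difference and no overlap (vertical axis, by probe name). Open symbols were not well above background, as for A_30_P01028015, whose WT arrays all lie below -4.9 and whose KO arrays lie above -3.8.

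Detection in 1 genotype alone was counted among the 5314 kept interval probes, and the count among the other probes is not given. Interval probes well above background on all 3 KO arrays and no WT array numbered 23, and the largest bound among them was at least 2.31-fold higher in KO (A_30_P01030239, adjusted p = 0.393). Those well above background on all 3 WT arrays and no KO array numbered 16, with at most a bound of 1.64-fold, for A_30_P01017739 (adjusted p = 0.400). Since these probes were kept through the genotype where they were high, their number describes detection and not a difference.

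Near Spred1, on chromosome 2 within 10 Mb and outside the left-out window, 7 interval probes were kept, and none had an unadjusted p under 0.05. The closest, A_30_P01025644, 1.09 Mb from Spred1, read 0.79, 1.02 and 0.65 in WT and 0.71, 0.85 and 0.85 in KO, with overlap. The differences of the 7 ran from -0.01 to 0.47, and the smallest adjusted p was 0.439.

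Long non-coding RNAs with names of their own were read from probes that are not interval probes. Their loci were not all apart from the intervals. Kept interval probes matched the promoter windows of Gas5 (A_30_P01026655) and Tug1 (A_30_P01023757) on the gene's own strand. Of a list of 56, 40 had a probe outside the left-out window and 29 were kept, taking the brightest probe of each. None passed the threshold in either direction, beside 0.0324% of all probes, and at an unadjusted p under 0.05, 2 were higher and 1 lower, where the background of 6.72% and 4.72% gives shares of about that size. The median difference was 0.048, with 18 of 29 above 0, where 45.3% of all kept probes that are not interval probes were above 0. H19, an imprinted RNA known from quiescent stem cells, read -0.70, -1.35 and -1.58 in WT and -0.59, -0.50 and -0.27 in KO. Its genotypes did not overlap, at 0.76 ± 0.23 SE (limma adjusted p = 0.393). Snhg7, a host of small nucleolar RNAs, differed by 0.34 and Airn, the antisense RNA of the imprinted Igf2r locus, by -0.49 (adjusted p = 0.400 and 0.397). Malat1 differed by -0.17 ± 0.11 SE, Neat1, the scaffold of paraspeckles, by 0.27 ± 0.16, and Meg3 by 0.22 ± 0.35, all with overlap between the genotypes, as did Gas5. Xist, Hotair and 9 others on the list were not kept.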

How the data were processed

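RNA of 6 sorted samples was hybridised to 1-colour Agilent arrays, 3 per genotype. Per the submitters' processing notes, the scanner software was Agilent Feature Extraction, version 10.7.3.1. The deposited scanner files give each spot's processed signal, an intensity corrected for background within the array, per the file headers. The authors' deposited value table holds these intensities over an array constant of 304 to 368, on a linear scale and not centred on genes, with medians of 0.0638 to 0.075, and served as an alternative.

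Control spots and outlier spots were left out, and spots of 1 probe were averaged. Values are log2 intensity minus that of the array's 75th percentile. All 27809 probes well above background on all 3 arrays of a genotype entered 1 fit of KO minus WT by lmFit and eBayes (limma 3.58.1, R 4.3.3), with Benjamini-Hochberg adjustment over all of them and a threshold of 0.05. The fit was tested on simulated data. The number of arrays limits the precision. The members and lists were chosen with earlier results of these data known. Probes named in the text are the 10 of smallest p per direction with at least 1.5-fold difference and no overlap, the 10 brightest, the 5 brightest intervals with both strands, the 3 intervals with the most kept probes (ties broken by the brightest probe), those near Spred1 and those detected in 1 genotype, and the text prints some of them, as a few items are not reported here. Of 39500 other probes, 28026 were matched to RefSeq by accession, which gave 1651 of them a newer symbol. Alternatives changed the scaling, the background correction, the filter, the features, the slide or replicate block and the arrays used.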

Additional observations from a re-analysis of the deposited data

How the results depend on the processing

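The median difference of the interval probes was above 0 under all 15 alternatives. It was 0.039 under normexp with quantile normalization and 0.077 to 0.14 with 1 array left out. The 1 interval probe past the threshold was lost, leaving 0 by limma, under normexp, with the filter on all 6 arrays, without a filter, with 1 feature per gene name, with the slide as a block, within slide 1, with the replicate number as a block, and with any 1 array left out (0 to 0). At an unadjusted p under 0.05 the counts of higher probes were 327 with 1 feature per gene name, 336 within slide 1 and 397 to 879 with 1 array left out. The counts of lower probes were 182 under quantile normalization, 203 without a filter, 43 with 1 feature per gene name and 92 to 173 with 1 array left out. With 1 feature per gene name fewer probes were tested, and within slide 1 fewer arrays were used. The cause of the other changes was not tested.

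The replicate numbers did not pair the samples (correlations of same-numbered deviations -0.018, 0.14 and 0.084). With the replicate block, 624 interval probes were higher and 141 lower at an unadjusted p under 0.05.

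For the 20 probes named for their differences, none of 280 alternative values changed sign. These probes were chosen on the same arrays for a difference without overlap. Settings that only leave out or block arrays or change the filter could therefore not turn their sign. Only another scaling or background correction could have done so. Among the other 58 named probes, which were not chosen in this way, 40 of 832 values changed sign, all of differences that did not pass in any setting. Under quantile normalization these were A_30_P01026458 (-0.034), A_30_P01020015 (-0.020), A_30_P01031448 (-0.011), A_30_P01021316 (0.030), A_30_P01028498 (-0.10), A_30_P01031327 (0.00091) and A_30_P01025644 (0.00022). Under normexp with quantile normalization they were A_30_P01026458 (-0.033), A_30_P01030669 (-0.0088), A_30_P01031448 (-0.036), A_30_P01021316 (0.045), A_30_P01028498 (-0.057), A_30_P01027209 (-0.010) and A_30_P01025644 (0.010). Within slide 1 they were A_30_P01021316 (0.032), A_30_P01031327 (0.013) and A_30_P01020357 (0.033). With 1 array left out, the ranges that crossed 0 were -0.063 to 0.037 for A_30_P01021316, -0.29 to 0.23 for A_30_P01028498, -0.099 to 0.086 for A_30_P01025644, -0.22 to 0.046 for A_30_P01023888, -0.094 to 0.13 for A_30_P01027209 and -0.15 to 3.77e-06 for A_30_P01018382. In the Dancr interval they were -0.19 to 0.13 for A_30_P01031327, -0.24 to 0.054 for A_30_P01020357, -0.20 to 0.11 for A_30_P01027365, -0.28 to 0.00044 for A_30_P01032180, -0.047 to 0.14 for A_30_P01019250 and -0.057 to 0.14 for A_30_P01032580.

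With a median level of -2.05, many interval probes lie close to background, and 593 of 5314 were not well above it on every array.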
